A study of Mus musculus with 16 samples.

Results

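The genes described are those of the T cell receptor signalling complex on CD8 T cells and of the first enzymes and adaptor that it engages. They are Cd3d, Cd3e, Cd3g and Cd247 for the receptor's signalling chains, Cd8a and Cd8b1 for the CD8 coreceptor, Lck and Zap70 for the proximal kinases, and Lat for the adaptor. The rule that picks them uses gene names and no measured value, though the set was proposed with earlier results of these data known. A gene counted as measured where a probe set was annotated with its symbol alone, which left 7 of the 9 genes, out of 22180 genes tested in all. Lck and Cd247 had no such probe set in the annotation used and were not analysed here. Each of the other genes was read by 1 probe set, 17516691 for Cd3d, 17526464 for Cd3e, 17526456 for Cd3g, 17459482 for Cd8a, 17459474 for Cd8b1, 17211867 for Zap70 and 17496150 for Lat.

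The samples were CD8 T cells sorted from the spleens of female chimeric mice of the strain labelled C56BL/6, each array holding total RNA of 1 sorted sample. The chimeras carried Il4i1 KO or WT bone marrow, Il4i1 being the gene of a secreted amino acid oxidase. All of them, WT controls included, had received chronic lymphocytic leukaemia cells from Eµ-TCL1 mice, in which the TCL1 oncogene is expressed in B cells under an immunoglobulin enhancer. Cells were taken 5 weeks after that transplantation, and the question put by the design is how loss of Il4i1 and the T cell subset relate to gene expression. There were 4 groups of 4 samples, namely effector KO and effector WT cells, sorted as CD44+CD127-, and memory KO and memory WT cells, sorted as CD44high CD127high. The labels give no age, and do not say which host cells remained after the bone marrow transfer or whether each sample is its own animal; the p-values rest on the spread among the samples as given, which may be technical.

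The T cell receptor recognises peptide on MHC molecules but has no signalling tail of its own. The CD3 chains and the zeta chain encoded by Cd247 carry the tyrosine motifs that the kinase Lck phosphorylates, and CD8 brings Lck to the receptor by binding MHC class I. ZAP-70 then docks on the phosphorylated chains and phosphorylates LAT, a membrane adaptor on which phospholipase C gamma and other effectors assemble. CD8 exists as an alpha-beta heterodimer, the coreceptor form on conventional CD8 T cells, or as an alpha-alpha homodimer.

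Values are the deposited log2 intensities, 1 value per probe set and array, between 0.74 and 14.05 over all probe sets, with array medians of 4.12 to 4.22. Detection calls were not used here and depth has no meaning for arrays, so the number of arrays limits the precision. Over all genes the array effector KO 4 stood apart, with correlations of 0.965 to 0.974 to the other arrays, while every other array reached at least 0.989 with its closest neighbour. Il7r, the gene of the sorting marker CD127, averaged 5.69 in effector KO cells and 4.04 in effector WT cells, against 11.08 in memory KO cells and 10.71 in memory WT cells, so the labels of the subsets fit their sort. Cd44 averaged 5.89 and 6.17 in effector KO and effector WT cells, against 6.75 and 6.81 in memory KO and memory WT cells. All CD3 and CD8 genes lay above 9.7 on every array, far over the array medians, as the label CD8 T cell asks.

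Markers of other cells moved with the subset. Of 9 measured B cell and leukaemia markers, 8 were lower in effector than in memory cells over both genotypes at an adjusted p under 0.05, among them Ighm with a log2 difference of -1.97 and Cd79b with -1.32. The log2 of their summed level was 9.40 to 10.25 in effector KO, 9.04 to 9.57 in effector WT, 11.24 to 11.58 in memory KO and 10.95 to 11.83 in memory WT arrays. Ighm made up most of this sum, averaging 11.33 in memory KO and 11.09 in memory WT arrays. The next highest group mean of a marker was 6.51, for Cd79b in memory WT arrays, so the sum says little of the other markers. Tcl1, read by a probe set annotated to the mouse gene, stayed under the array median on all 16 arrays. Whether this probe set reads the TCL1 oncogene of the transplanted leukaemia cells was not tested. Of 9 myeloid markers 3 were lower in effector cells, with log2 summed levels of 7.74 to 8.14 in effector KO, 7.995 to 8.17 in effector WT, 7.76 to 9.10 in memory KO and 8.68 to 8.80 in memory WT arrays. Of 3 natural killer cell markers 2 were lower, with log2 summed levels of 4.75 to 5.64 in effector KO, 4.67 to 5.20 in effector WT, 5.72 to 6.70 in memory KO and 5.36 to 5.85 in memory WT arrays. None of 4 CD4 T cell markers passed the test, nor did the 1 measured gene each of the gamma delta T cell and erythroid lists. The part of these other cells in the differences between effector and memory cells below was not tested, and in a sorted bulk sample fewer cells of a type and less RNA per cell cannot be told apart.

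Promoter windows of some of the genes are given first. RefSeq (GRCm38.p6) held windows, from 250 bases before to 50 bases after an annotated start, for 8 of the 9 genes. The windows of Zap70 and Lat are shown because these genes differed most between the subsets. Those of Cd3g and Cd3d are shown because their starts lie 1355 bases apart on opposite strands. Another reason is that Cd3g was called between the subsets while Cd3d was not. The Cd3g call sat near the threshold, and Cd3g and Cd3d were not tested against each other. Capitals mark the matches, on either strand, of 3 short motifs named for transcription factor families with roles in T cells, TGTGGT for RUNX, CCGGAA for ETS and CTTTGA for TCF/LEF. Among 32544 windows, 16.7% hold the RUNX letters, 15% the ETS letters and 16% the TCF/LEF letters.
Zap70, chr1:36761548-36761847, plus strand: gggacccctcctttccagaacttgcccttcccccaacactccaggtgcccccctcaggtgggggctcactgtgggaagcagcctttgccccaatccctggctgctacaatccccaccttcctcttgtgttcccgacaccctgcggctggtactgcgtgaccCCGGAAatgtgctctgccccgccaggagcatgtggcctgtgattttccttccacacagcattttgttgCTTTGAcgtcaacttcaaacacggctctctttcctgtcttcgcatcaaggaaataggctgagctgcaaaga
Lat, chr7:126369519-126369818, minus strand: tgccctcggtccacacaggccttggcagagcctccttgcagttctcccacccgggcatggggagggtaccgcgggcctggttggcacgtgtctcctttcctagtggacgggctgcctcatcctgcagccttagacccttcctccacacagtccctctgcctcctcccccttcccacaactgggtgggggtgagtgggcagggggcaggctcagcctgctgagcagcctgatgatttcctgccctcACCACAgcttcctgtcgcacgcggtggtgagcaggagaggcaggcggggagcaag
Cd3g, chr9:44980382-44980681, minus strand: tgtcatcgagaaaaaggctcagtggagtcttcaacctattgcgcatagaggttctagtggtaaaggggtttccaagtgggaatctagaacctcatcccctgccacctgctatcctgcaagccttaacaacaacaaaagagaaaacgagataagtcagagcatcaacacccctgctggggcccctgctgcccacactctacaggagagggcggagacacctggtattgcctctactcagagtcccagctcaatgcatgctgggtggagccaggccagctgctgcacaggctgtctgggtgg
Cd3d, chr9:44981536-44981835, plus strand: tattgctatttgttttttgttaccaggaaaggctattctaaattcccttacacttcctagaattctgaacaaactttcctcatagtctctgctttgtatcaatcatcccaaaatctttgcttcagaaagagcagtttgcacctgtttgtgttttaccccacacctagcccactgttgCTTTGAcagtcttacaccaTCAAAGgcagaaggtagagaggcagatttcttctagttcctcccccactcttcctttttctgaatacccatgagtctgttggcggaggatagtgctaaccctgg
The Zap70 window, at the outermost of 3 annotated starts, holds 1 ETS match at position -89 and 1 TCF/LEF match at -21 from the start. Of the Zap70 windows not shown, the one with its start 2717 bases away holds 1 RUNX match at -75 and no other. The one 17186 bases away holds no match. The Lat and Cd3d windows lie at starts 137 and 17 bases from the outermost ones. The Lat window holds 1 RUNX match at -5, the Cd3d window holds TCF/LEF matches at -73 and -54, and the Cd3g window holds none of the 3. These are matches of letters only, and no binding was measured here.

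Effector cells had higher levels than memory cells of 5 of the 7 genes, namely Zap70, Lat, Cd8a, Cd3e and Cd3g, when the differences in KO and WT chimeras were averaged, while Cd3d and Cd8b1 did not pass the test. The test was limma's moderated test over all 22180 genes with Benjamini-Hochberg adjustment, two-sided, at an adjusted p of 0.05. In this comparison 12.2% of all genes tested were called, 5.05% of all genes as higher and 7.11% of all genes as lower in effector cells. The calls of Zap70 and Lat held in every alternative setting that was run for this comparison, and those of Cd3e, Cd3g and Cd8a did not. With the replicate number within genotype taken as a block, 2 of the 7 genes were called. Cd3e, Cd3g and Cd8a then had limma adjusted p of 0.0852, 0.0926 and 0.0949. The labels do not say whether equal replicate numbers mark pairs. In deviations from the group mean, most effector arrays correlated best with the same-numbered memory array of their genotype. Correlations between equal numbers were 0.018 to 0.239. This hints at pairs, which the main fit and the exact permutation tests below did not take into account. The median log2 difference was 0.21 over the 7 genes and 0.01 over all genes tested. Within KO chimeras 2 of the 7 genes were called, Zap70 and Lat, where 7.43% of all genes were. Within WT chimeras 1 of the 7 was called, Zap70, where 3.22% of all genes were.

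**Figure D1:**
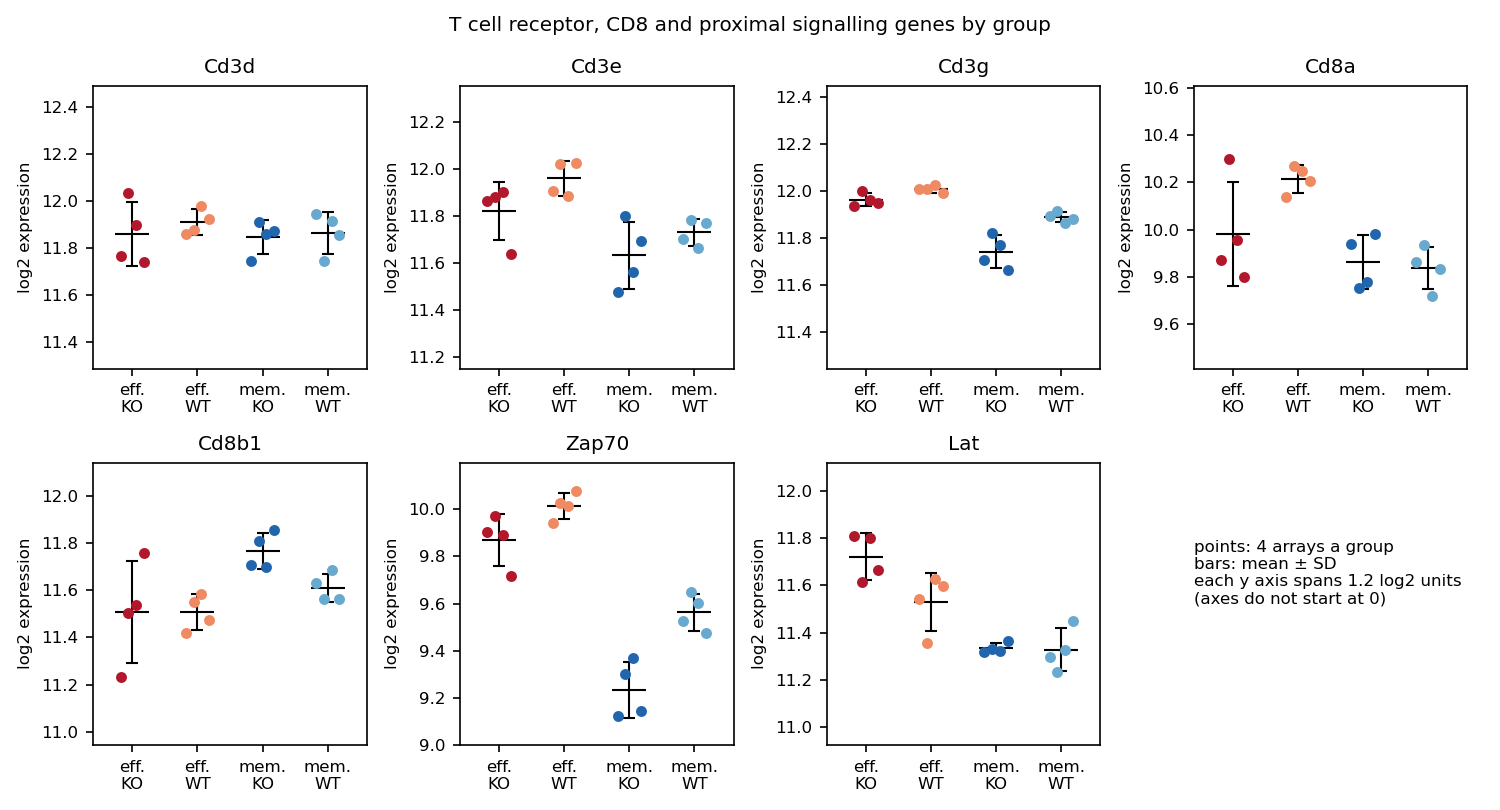
Deposited log2 values (vertical axes) of the 7 measured genes in each of the 16 arrays, with both effector groups left of both memory groups; points are arrays and lines are group means with SD. The 8 effector arrays lie above the 8 memory arrays for Zap70 and Cd3g, and the groups overlap throughout for Cd3d.

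Among the CD3 chains, each of which pairs within the receptor as a signalling dimer, Cd3g separated the subsets. Its 4 effector KO arrays read 11.94, 12.0004, 11.96 and 11.95 and its 4 effector WT arrays 12.01, 12.01, 12.03 and 11.99. Its memory KO arrays read 11.70, 11.82, 11.77 and 11.66 and its memory WT arrays 11.89, 11.92, 11.86 and 11.88. All 8 effector arrays were above all 8 memory arrays, an arrangement found in 0.789% of all genes. The difference was small, a log2 difference of 0.17 ± 0.05 (SE, n = 8 and 8) or 1.13-fold, with a limma adjusted p of 0.0313. An exact two-sided permutation test within genotypes gave p = 0.000408, the smallest that 4900 arrangements allow.

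Cd3e read 11.86, 11.88, 11.90 and 11.64 in effector KO arrays and 11.91, 12.02, 11.89 and 12.03 in effector WT arrays. It read 11.48, 11.80, 11.56 and 11.70 in memory KO arrays and 11.70, 11.78, 11.67 and 11.77 in memory WT arrays. The effector arrays were the higher ones except effector KO 4, which fell within the range of the memory arrays. The log2 difference was 0.21 ± 0.06 or 1.16-fold, with a limma adjusted p of 0.0441 and an exact permutation p of 0.00286. Cd3d, the partner of Cd3e in one of the dimers, averaged 11.86 ± 0.14 in effector KO, 11.91 ± 0.05 in effector WT, 11.85 ± 0.07 in memory KO and 11.86 ± 0.09 in memory WT arrays (SD, n = 4 each). The 4 groups of Cd3d overlapped, and its difference of 0.03 had a 95% interval of -0.10 to 0.16, with a limma adjusted p of 0.844.

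The calls of Cd3e and Cd3g sat near the threshold. Leaving out any single array except effector KO 4 and memory KO 2 ended the Cd3e call, with limma adjusted p of 0.052 to 0.0897 over those 14 refits. For Cd3g, 11 of 16 such refits ended the call, with adjusted p of 0.0518 to 0.0683; it held without effector KO 1, effector KO 4, memory KO 2, memory KO 3 or memory WT 2.

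The coreceptor's 2 chains had differences of opposite sign. Cd8a, whose product is present in both forms of CD8, read 9.87, 10.30, 9.96 and 9.80 in effector KO arrays and 10.14, 10.27, 10.25 and 10.21 in effector WT arrays. It read 9.94, 9.75, 9.78 and 9.98 in memory KO arrays and 9.86, 9.93, 9.72 and 9.83 in memory WT arrays. The effector WT arrays were above every memory array, and effector KO arrays spanned both ranges. Cd8a was higher in effector cells by 0.25 ± 0.07 on the log2 scale, 1.19-fold, with a limma adjusted p of 0.0373 and an exact permutation p of 0.00694. This call ended in 10 of 16 refits with 1 array left out, at adjusted p of 0.056 to 0.0803, and held without effector KO 1, effector KO 4, effector WT 1, memory KO 1, memory KO 4 or memory WT 2. In WT chimeras the Cd8a difference was 0.38 ± 0.11 (limma adjusted p = 0.063). In KO chimeras it was 0.12 (95% interval -0.10 to 0.34, limma adjusted p = 0.598).

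Cd8b1, the chain found in the heterodimer alone, had a difference of the other sign that did not pass the test. It read 11.23, 11.50, 11.54 and 11.76 in effector KO arrays and 11.42, 11.55, 11.58 and 11.48 in effector WT arrays. It read 11.71, 11.81, 11.70 and 11.86 in memory KO arrays and 11.63, 11.56, 11.69 and 11.56 in memory WT arrays. The effector KO arrays were spread widely, from effector KO 1 under every other array to effector KO 4 within the range of the memory KO arrays. The log2 difference, effector minus memory, was -0.18 ± 0.07 with a 95% interval of -0.33 to -0.03, a limma adjusted p of 0.119 and an exact permutation p of 0.00816. With 1 array left out it ranged from -0.22 without effector KO 4 to -0.14 without effector KO 1. Of these 16 refits only the one without effector KO 4 passed, with a limma adjusted p of 0.0247. Among the other alternatives it passed with array weights (-0.20, limma adjusted p = 0.0302) and with a mean-variance trend and robust prior (-0.18, limma adjusted p = 0.046). Over all alternatives the limma adjusted p reached 0.219.

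The difference between both chains, Cd8a minus Cd8b1 on the log2 scale, was examined after these values had been seen. It averaged -1.53 ± 0.33 in effector KO, -1.29 ± 0.03 in effector WT, -1.91 ± 0.12 in memory KO and -1.77 ± 0.14 in memory WT arrays (SD, n = 4 each). Since each probe set has its own response, only the change of this difference between groups can be read, not its level. It was higher in effector than in memory cells by 0.43, with an exact two-sided permutation p of 0.00163. Leaving out any 1 array kept it between 0.38 and 0.50, with effector KO 4 absent at the upper end. Within WT chimeras it was higher by 0.48 (exact p = 0.0286, the smallest that 4 against 4 allows), and within KO chimeras by 0.38 (exact p = 0.114).

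**Figure D2:**
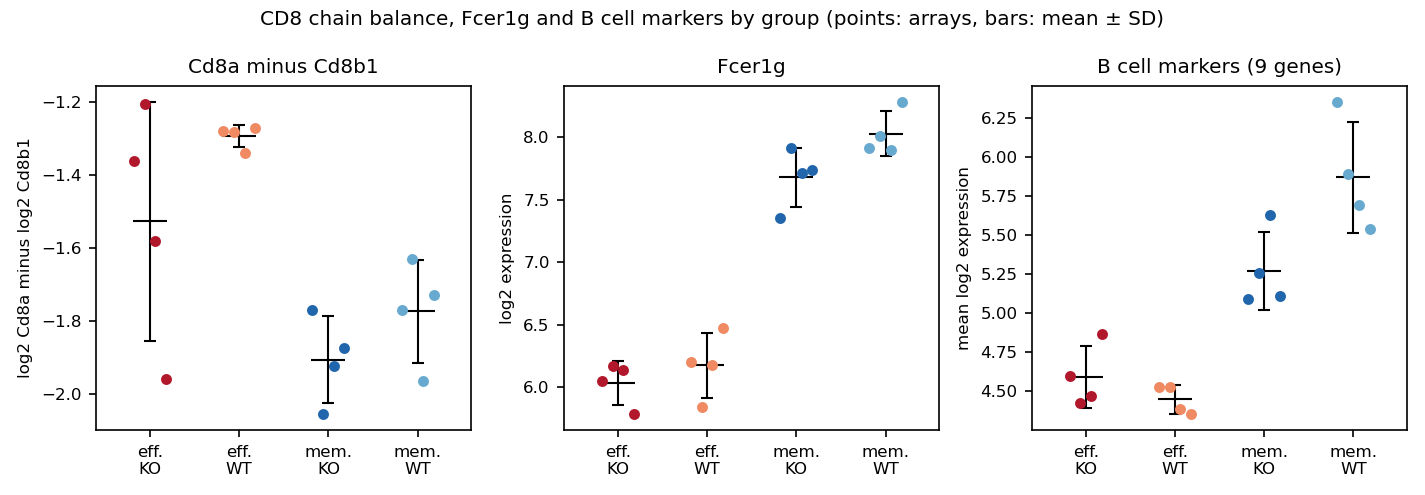
Cd8a minus Cd8b1 on the log2 scale (left), the log2 value of Fcer1g (middle) and the mean log2 value of 9 B cell markers (right) for the arrays of the 4 groups, KO left of WT; points are arrays and lines are group means with SD. The effector WT arrays sit between -1.34 and -1.27 and effector KO 4 at -1.96, all effector arrays are at or under 6.47 for Fcer1g and all memory arrays at or over 7.35, and the B cell marker mean is at most 4.87 in effector and at least 5.09 in memory arrays.

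Zap70 showed the largest of the 7 differences. It read 9.90, 9.97, 9.89 and 9.72 in effector KO arrays and 9.94, 10.03, 10.01 and 10.08 in effector WT arrays. It read 9.12, 9.30, 9.37 and 9.15 in memory KO arrays and 9.52, 9.65, 9.60 and 9.48 in memory WT arrays. The 8 effector arrays were all above the 8 memory arrays, and the memory KO arrays were the lowest 4 of all. Effector cells were higher by 0.54 ± 0.06 on the log2 scale (95% interval 0.41 to 0.67), 1.46-fold, with a limma adjusted p of 2.29e-05 and an exact permutation p of 0.000408. The difference was 0.64 ± 0.09 in KO chimeras (1.55-fold, adjusted p = 0.000332) and 0.45 ± 0.09 in WT chimeras (1.37-fold, adjusted p = 0.00733), both by limma. These calls held in every alternative setting that was run.

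Lat, the adaptor that ZAP-70 phosphorylates, read 11.81, 11.61, 11.80 and 11.66 in effector KO arrays and 11.54, 11.36, 11.63 and 11.60 in effector WT arrays. It read 11.32, 11.33, 11.32 and 11.36 in memory KO arrays and 11.30, 11.23, 11.32 and 11.45 in memory WT arrays. The effector KO arrays were above every memory array, whereas the effector WT arrays overlapped the memory WT arrays through effector WT 2 and memory WT 4. Averaged over both genotypes, effector cells were higher by 0.30 ± 0.06, 1.23-fold, with a limma adjusted p of 0.0036 and an exact permutation p of 0.000816. In KO chimeras the difference was 0.39 ± 0.09 (1.31-fold, limma adjusted p = 0.0103, or 0.0692 with only the 8 arrays of KO chimeras fitted, which ends the call), and in WT chimeras it was 0.20 with a limma adjusted p of 0.276. The test of the difference between these, given with the genotypes below, did not pass.

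**Figure D3:**
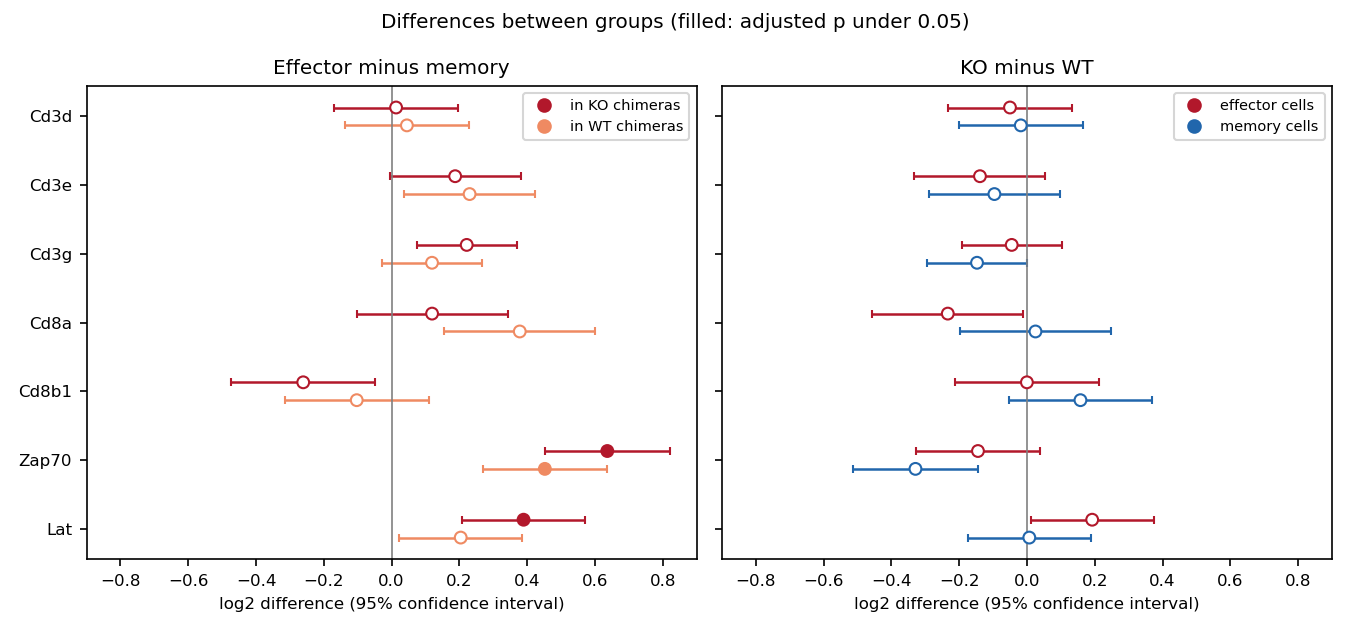
Log2 differences with 95% intervals from the limma fit for the 7 measured genes (rows), effector minus memory within KO and within WT chimeras (left) and KO minus WT within effector and within memory cells (right); filled points have an adjusted p under 0.05. On the left Zap70 is filled in both genotypes and Lat in KO chimeras, and on the right no point is filled.

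No gene of the complex was called between KO and WT chimeras, in either subset or over both. By limma at an adjusted p of 0.05, 0.0541% of all genes were called in effector cells, 0.113% in memory cells and 0.194% over both subsets; at an unadjusted p under 0.05 these shares were 9.32%, 11.3% and 13.9%. Exact permutation tests numbered 42 over the 7 genes and 6 comparisons. The same 6 comparisons were also tested for Cd8a minus Cd8b1, and effector against memory over both genotypes again with each array left out. All these p-values are unadjusted.

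In memory cells Zap70 came nearest. Its memory KO arrays, 9.23 ± 0.12, all lay under its memory WT arrays, 9.56 ± 0.08 (SD, n = 4 each). The log2 difference was -0.33 ± 0.09 with a 95% interval of -0.51 to -0.15, at a limma p of 0.00156 that became 0.173 after adjustment, and an exact permutation p of 0.0286, the smallest the design allows. Cd3g was also lower in every memory KO array than in any memory WT array, 11.74 ± 0.07 against 11.89 ± 0.02, with a log2 difference of -0.15 ± 0.07 and a limma adjusted p of 0.445. Cd8b1 was the reverse, 11.77 ± 0.08 in memory KO against 11.61 ± 0.06 in memory WT arrays, with no overlap, a log2 difference of 0.16 ± 0.10 and a limma adjusted p of 0.594. Thus 3 of the 7 genes did not overlap between memory KO and memory WT arrays, in a comparison where 6.49% of all genes did not. Cd3d, Cd3e, Cd8a and Lat overlapped, with log2 differences between -0.10 and 0.03. Of the B cell markers 7 of 9 had negative KO minus WT differences in memory cells and 1 passed the test, Cd22 with -1.04 (limma adjusted p = 0.0145). Ighm and Tcl1 went the other way, and Ighm, most of the summed level, averaged 11.33 in memory KO against 11.09 in memory WT arrays. The part of B and leukaemia cells in the differences of the 7 genes was not tested.

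In effector cells every gene overlapped between KO and WT arrays, in a comparison where 4.65% of all genes did not. Lat averaged 11.72 ± 0.10 in effector KO and 11.53 ± 0.12 in effector WT arrays, a log2 difference of 0.19 ± 0.09 (95% interval 0.01 to 0.37, limma adjusted p = 0.527). Cd8a averaged 9.98 ± 0.22 in effector KO and 10.21 ± 0.06 in effector WT arrays, a difference of -0.23 ± 0.11 (95% interval -0.46 to -0.01, limma adjusted p = 0.527). Zap70 and Cd3e each differed by -0.14, with limma adjusted p of 0.618 and 0.645. Cd3d, Cd3g and Cd8b1 had log2 differences of -0.05, -0.045 and -0.0002. The gene of a sorting marker also differed here, since Il7r was higher in effector KO than in effector WT arrays by 1.65 ± 0.25 (limma adjusted p = 0.0183), and the part of this in the differences of the 7 genes was not tested. Of the B cell markers 7 of 9 had positive KO minus WT differences in effector cells, and none passed the test. Ighm averaged 9.56 in effector KO and 8.93 in effector WT arrays.

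Over both subsets Zap70 had a KO minus WT difference of -0.24 ± 0.06, with a limma adjusted p of 0.103 and an exact permutation p of 0.000816. Cd3g differed by -0.10 with a limma adjusted p of 0.399 and an exact permutation p of 0.000816. The other genes had limma adjusted p of 0.433 or more. Both tests took effector and memory arrays as independent. If equal replicate numbers mark 1 animal, these p-values may be too small. With 4 against 4 animals no exact permutation p under 0.0286 would be possible. The KO effect did not differ between subsets by test for any of the 7 genes, with limma adjusted p of 0.85 or more. That interaction was 0.18 ± 0.12 for Zap70, 0.19 ± 0.12 for Lat and -0.26 ± 0.15 for Cd8a, and 0 of 22180 genes passed it, while 5.84% had an unadjusted limma p under 0.05.

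Genes around the complex were read from lists of the same pathway, and their counts stand beside the 5.05% of all genes called higher and 7.11% called lower in effector cells over both genotypes. Fcer1g, the gamma chain of Fc receptors that can stand in for the zeta chain in some T cell receptors, was the single measured gene of 8 listed other receptor chains. It read 6.05, 6.17, 6.14 and 5.78 in effector KO arrays and 6.20, 5.84, 6.18 and 6.47 in effector WT arrays, against 7.35, 7.92, 7.71 and 7.74 in memory KO arrays and 7.91, 8.01, 7.90 and 8.28 in memory WT arrays. Effector cells were thus lower by a log2 difference of -1.75 ± 0.10, 3.36-fold, with a limma adjusted p of 4.64e-08, and in KO and WT chimeras apart by -1.65 and -1.85. Fcer1g is also expressed by myeloid and natural killer cells, whose markers were lower in effector cells as given above; their part in this difference was not tested.

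Of 5 other proximal kinases, 1 was higher and 2 were lower in effector cells over both genotypes. Fyn, the other Src family kinase of the receptor, rose by 0.29 ± 0.06 (limma adjusted p = 0.00453). Txk, a Tec family kinase, fell by 0.56 on the log2 scale (limma adjusted p = 0.000922), with means of 8.77 in effector KO and 8.78 in effector WT cells against 9.54 in memory KO and 9.13 in memory WT cells. Syk, the relative of ZAP-70 used by B cells, had a log2 difference of -0.46 ± 0.10 (limma adjusted p = 0.00643) at levels near the array median.

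Of 14 adaptors, 3 were called higher and 2 lower in effector cells. Lax1, a membrane adaptor that restrains lymphocyte signalling, averaged 10.47 in effector KO and 10.42 in effector WT cells against 9.89 in memory KO and 9.87 in memory WT cells. Its log2 difference was 0.56 ± 0.06 (limma adjusted p = 2.49e-05), and it was called within each genotype. Sh2d2a, which encodes the T cell specific adaptor TSAd that binds Lck, was higher by 0.52 ± 0.08 (limma adjusted p = 0.000307). Lcp2, which encodes SLP-76, the partner of LAT in assembling the signalling complex, was higher by 0.33 ± 0.05 (limma adjusted p = 0.000704). Sit1, a membrane adaptor that binds the phosphatase SHP-2, was lower by a log2 difference of -0.76 ± 0.14 (limma adjusted p = 0.00145), and Pag1, which recruits the Lck inhibitor Csk, was the other lower one.

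Downstream of LAT, 1 of 13 genes was higher and 3 were lower in effector cells. Nfatc1, a calcium-regulated transcription factor, was higher by 0.29 ± 0.09, near the threshold (limma adjusted p = 0.0408). Calls in the pathway lists were not followed through the alternative settings, which were read for the receptor genes and for counts over all genes. The calcium sensor Stim1, the Ras activator Sos1 and Prkcq, which encodes protein kinase C theta, had log2 differences of -0.44, -0.41 and -0.36 (limma adjusted p of 0.00328, 0.00751 and 0.0191). Among 15 phosphatases and negative regulators, 4 were higher and 3 lower. Dgkz, a diacylglycerol kinase that removes the second messenger made after LAT, was higher by 0.51 ± 0.06 (limma adjusted p = 2.17e-05). Ptpn6, which encodes the phosphatase SHP-1, was lower, with means of 8.93 in effector KO and 8.63 in effector WT cells against 9.87 in memory KO and 9.58 in memory WT cells, a log2 difference of -0.95 ± 0.11 (limma adjusted p = 3.21e-05). Dok1 and Ubash3b, both restraints on receptor signalling, were higher by 0.51 and 0.73 (limma adjusted p of 0.00178 and 0.0067). Of 6 surface partners, 1 was lower, the costimulatory receptor Cd226, with -1.02 ± 0.25 (limma adjusted p = 0.0116); with lists this short, such a count is near the 12.2% called among all genes.

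Between KO and WT no gene of these 6 pathway lists passed the test in effector cells, in memory cells or over both. The smallest limma adjusted p over both subsets was 0.0643 for Sh2d2a, with a log2 difference of -0.36 ± 0.08, followed by 0.0882 for Prkcq with 0.40 ± 0.10. In memory cells Sh2d2a had -0.47 ± 0.11 (limma adjusted p = 0.139) and Ubash3b -0.84 ± 0.23 (limma adjusted p = 0.189). In effector cells Prkcq had 0.42 ± 0.14 (limma adjusted p = 0.442).

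Genes of like pattern were sought outside the complex, leaving out predicted genes, RIKEN clones and genes with other placeholder names. Among the genes left, the pattern of Zap70 across the 16 arrays was most like that of Med7, a Mediator subunit, with a Pearson correlation of 0.973. Next came Entpd1, which encodes the ectonucleotidase CD39, with 0.972, and Prdm1, which encodes the transcription factor Blimp-1, with 0.970. Prdm1 averaged 8.91 in effector KO and 9.11 in effector WT cells, against 7.41 in memory KO and 8.32 in memory WT cells. The mean of the 3 CD3 chains was most like Lcp1, an actin-bundling protein, with 0.941, Idh3a, a subunit of a mitochondrial isocitrate dehydrogenase, with 0.938, and Zfp251, a zinc finger gene, with 0.934. Within the complex Zap70 correlated at 0.954 with Cd3g, 0.823 with Cd3e, 0.318 with Cd3d and -0.725 with Cd8b1. These correlations describe 16 arrays that share the split into subsets, and no p-value is attached to them.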

How the data were processed

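Total RNA of 16 sorted samples was labelled with biotin and hybridised to 1-colour Affymetrix arrays, per the labels' protocols. The authors deposited 1 table of log2 values for 41345 probe sets; the log base was inferred from the values, and background correction and normalization were not given in any source used here. Of these probe sets 23521 were annotated with 1 gene symbol, 1814 with several, and 16010 were not listed; for genes with several, the probe set with the highest mean was kept, leaving 22180 genes. Dim probe sets were kept. One mean per group was fitted over all 16 arrays with limma 3.58.1 in R 4.3.3, with 7 contrasts, two-sided and Benjamini-Hochberg adjusted over all genes, at a threshold of 0.05. The fit was tested on simulated data. Exact two-sided permutation tests over samples were added for single genes. Groups were taken from the sample titles. The genes described and the pathway and marker lists were chosen with earlier results of these data known. Named from each list were up to 4 called genes of smallest p per comparison, or, with none called, values of the 2 of smallest p. Genes of like pattern were the 3 with the highest Pearson correlation. Genes of the complex, predicted genes, RIKEN clones and genes with other placeholder names were left out of that ranking. The Cd8a minus Cd8b1 difference, and the alternatives for it, were chosen after the data were seen. Alternatives covered normalization, centring, the mean of a gene's probe sets, dim genes and the variance prior. They also covered array weights, the replicate number as a block, fits of only the 8 arrays compared, and each array left out.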

Additional observations from a re-analysis of the deposited data

Results flagged for a closer look

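Groups of 4 arrays were searched for 1 array far from the other 3, over 40 genes and 160 groups, and 13 were found, where chance gives about 1 in 20. Of 28 groups of the receptor genes 1 was found, Cd3e in effector KO 4 at 11.6383, against 11.86 to 11.90 in the other 3. Memory WT 2 was the distant array 5 times, for Cblb at 10.9578 (others 10.71 to 10.75), Cd2 at 9.9271 (10.18 to 10.23), Cd5 at 9.7189 (10.18 to 10.20), Dgkz at 9.886 (9.70 to 9.71) and Sh2d2a at 11.3213 (10.99 to 11.03). Memory KO 3 was distant for Dgkz at 9.6823, Skap1 at 8.2934 and Syk at 5.0071. Memory KO 4 was distant for Dok1 at 5.9265 and memory KO 2 for Nfatc1 at 8.7388. Memory WT 4 was distant for Fyn at 10.0548 and effector WT 2 for Ptpn6 at 8.9877.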

How the results depend on the processing

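Over 49 pairs of a receptor gene and a comparison, 1183 alternative values were computed. Of these, 1105 kept direction and side of the threshold, 41 lost a call, 14 gained one and 23 changed sign. Some settings could change only the p-value and not the difference. Each of the 7 genes had 1 probe set, so averaging a gene's probe sets left its difference as it was. The same holds for the dim filter, the trend and robust prior, and leaving out an array outside the groups compared. It also holds for both replicate blocks and for the fits of only the 8 arrays compared. The 1105 are therefore not as many separate checks. Zap70 kept its effector against memory calls in every alternative (limma adjusted p of 2.54e-06 to 0.000398 over both genotypes) and so did Lat over both genotypes (0.00025 to 0.0115). All sign changes were of differences near 0, and their causes were not tested. Cd8b1 in effector KO against WT became 0.0028 with centred arrays and -0.0841 to 0.0922 with 1 array left out. Lat in memory KO against WT became -0.0061 with quantile normalization, -0.0154 with centring and -0.0242 to 0.0482 with arrays left out. With arrays left out, Cd3d ranged from -0.0581 to 0.0155 and Cd8a from -0.0145 to 0.0618 in memory KO against WT, and Cd3d from -0.0449 to 0.0526 in effector against memory in KO. The interaction of Cd3d was 0.0205 with array weights and -0.09 to 0.008 with arrays left out, and that of Cd3e -0.0946 to 0.0184. Receptor genes called in effector against memory over both genotypes numbered 5, or 3 with the replicate block, 2 with the replicate block within genotype and 2 to 6 with arrays left out. The block ended the calls of Cd3e (limma adjusted p = 0.0541) and Cd3g (0.0524), and the block within genotype those of Cd3e (0.0852), Cd3g (0.0926) and Cd8a (0.0949). In KO they numbered 2, or 1 with only the 8 arrays compared, where Lat was lost, and 2 to 3 with arrays left out; Cd3g was gained with quantile normalization, centring, the dim filter and the trend and robust prior (limma adjusted p of 0.00211 to 0.0443). In WT they numbered 1, or 2 with the dim filter, the trend and robust prior, array weights or only 8 arrays, and 1 to 2 with arrays left out. The call gained was that of Cd8a (limma adjusted p of 0.0123 to 0.0424, or 0.0241 to 0.0389 with arrays left out). Over all genes, effector KO against WT gave 12 calls, 29 with the replicate block, 4 with only 8 arrays and 4 to 42 with arrays left out. Memory KO against WT gave 25, 38 with centring, 42 with weights, 104 with the block, 7 with 8 arrays and 11 to 249 with arrays left out. KO against WT over both gave 43, 65 with centring, 92 with the dim filter, 72 with weights, 389 with the block and 23 to 329 with arrays left out. Effector against memory gave 1649 in KO (600 with 8 arrays, 961 to 2044 with arrays left out) and 715 in WT (1644 with weights, 1320 with 8 arrays, 359 to 1037 with arrays left out). The interaction gave 0 calls, and 0 to 5 with arrays left out. Same-numbered arrays of both subsets within a genotype had correlated deviations of 0.018 to 0.239, and 7 of 8 effector arrays correlated best with their own number. This hint of pairs comes from the data and not from the design. The main fit and the exact permutation tests did not take the numbers as pairs, so their p-values assume independent arrays. Scaling moved the median of all genes by at most 0.0317. Fits of 8 arrays could not be made for comparisons over all 4 groups. Background and slide alternatives were not run, since only processed values were used. The signal over background is unknown.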
